A study of Mus musculus with 112 samples.

Results

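Windows upstream of H19, Meg3, Rasgrf1 and Zdbf2, which hold paternally methylated imprinting control regions, were followed through sperm and brain DNA methylation (DNAme) profiles. The mice, or their fathers, had or had not been exposed to cigarette smoke (CS). Each gene was given a window that ran upstream from its annotated start on the mouse mm10 build (GRCm38): 5 kb for H19, 15 kb for Meg3, 35 kb for Rasgrf1 and 15 kb for Zdbf2. The windows were chr7:142578143-142583143 for H19 (ENSMUSG00000000031.16, minus strand), chr12:109526001-109541001 for Meg3 (ENSMUSG00000021268.17, plus strand), chr9:89874908-89909908 for Rasgrf1 (ENSMUSG00000032356.12, plus strand) and chr1:63258265-63273265 for Zdbf2 (ENSMUSG00000027520.15, plus strand). The rule uses position and no DNAme level. In all, 323 of the 4388579 CpG cytosines with a value anywhere in the series lay in the 4 windows: 40 at H19, 47 at Meg3, 140 at Rasgrf1 and 96 at Zdbf2. Both strands of a CpG count as separate cytosines.

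An imprinted gene is read from a single parental copy. DNAme laid down in the germline of a parent marks the copy from that parent, which may be the read or the silent copy. At most imprinted loci the mark comes from the egg. H19, Meg3 and Rasgrf1 are loci known for a mark that is set in the male germline, so that mature sperm is methylated there on every copy. A somatic tissue such as brain keeps DNAme there on the paternal copy and lacks it on the maternal one. Zdbf2 is taken with them for its paternal DNAme, and whether that DNAme is kept from sperm was not tested. H19 is a long noncoding RNA expressed from the maternal copy, and its control region binds the insulator protein CTCF when unmethylated, which keeps distant enhancers from the growth factor gene Igf2. Meg3 (also Gtl2) is the maternally expressed noncoding RNA of the Dlk1-Dio3 cluster, whose control region lies between Dlk1 and Meg3. Rasgrf1, a guanine nucleotide exchange factor for Ras that is strongly expressed in neurons, is read from the paternal copy, and its control region with an adjoining tandem repeat lies far upstream of the start. Zdbf2, which encodes a zinc finger protein, is also read from the paternal copy, and DNAme upstream of it takes part in its imprinting.

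The assay was reduced representation bisulfite sequencing (RRBS), which reads the ends of restriction fragments (here from MspI and TaqI digests), in 112 libraries of 13 groups. F0 cauda sperm came from C57BL/6J wild type (WT) males left unexposed (control WT, n = 10), exposed to CS from a smoking machine (smoked WT, n = 9), or exposed and then kept without CS for increasing times of 28 to 171 days (recovery 1, n = 9, recovery 2, n = 10, and recovery 3, n = 10), and from unexposed and CS-exposed Nrf2-/- males (n = 10 and 9). Nrf2-/- males lack a functional copy of the gene for NRF2, the transcription factor that drives the antioxidant response, in all cells and through life. F1 sperm was taken from sons whose sires were control WT (n = 6) or smoked WT (n = 7). F1 brain (prefrontal cortex, a mixture of neurons and glia) covered 4 kinds of sire, WT or Nrf2-/- and each unexposed or exposed, with n = 8 sons for each. The sons themselves were not exposed. All had CAST/EiJ mothers by the study's methods, although their strain label names only the sire's line, so that F1 against F0 is also a hybrid against an inbred strain, and sons of Nrf2-/- sires carry 1 targeted allele.

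The libraries held values at 800578 to 1855546 CpG cytosines in F0 sperm, 510212 to 1429060 in F1 sperm and 1332684 to 1711088 in brain. As a check of genotype, 6 cytosines of Nfe2l2, the gene of NRF2, were read in each of the 48 WT F0 sperm libraries, and 4 of them had a value in 0 of the 19 Nrf2-/- libraries. In the F0 sperm table headings the facility numbers 1 to 20 are Nrf2-/- and higher numbers are WT, so that number run and genotype cannot be told apart. As a check of tissue, loci known to carry the opposite, maternal mark had a median DNAme per library of 0% to 1.35% in F0 sperm, 0% to 1.52% in F1 sperm and 4.83% to 36.05% in brain. Of these loci Plagl1 stayed low in brain as well, with a mean of 2.43%. Read depth per cytosine is unknown, so the error of a value appears only through the spread between libraries. A percent averages both parental copies and all cells of a sample, so that a change on one copy and a change in cell makeup cannot be told apart.

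The sequences below carry the results and show what RRBS could and could not read. The CTCF core motif was searched on both strands, in the form known from this control region, with the bases that differ among the matches below left free. Matches at H19 were thus built into the pattern. It matched 4 times in the H19 window, each time on the strand of H19 and 2166 to 3904 bp upstream of the start, while 0.217% of 55413 annotated gene starts had at least 1 match in a window of that length. The other windows held 0 matches. The matches are shown with 10 flanking bases, 5′ to 3′ on the minus strand of mm10, with the match in capitals.
H19 CTCF match 1 (chr7:142580299-142580332, minus strand): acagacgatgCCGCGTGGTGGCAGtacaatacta
H19 CTCF match 2 (chr7:142580754-142580787, minus strand): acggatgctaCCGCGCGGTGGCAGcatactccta
H19 CTCF match 3 (chr7:142581780-142581813, minus strand): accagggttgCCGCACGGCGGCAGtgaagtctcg
H19 CTCF match 4 (chr7:142582024-142582057, minus strand): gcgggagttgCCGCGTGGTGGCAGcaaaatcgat

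Cytosines of these matches had too few values to be compared, the nearest comparable one being 136 bp away. The stretch of the H19 control region that could be compared lies between matches 2 and 3, intergenic and 2770 to 2951 bp upstream of the start. A second stretch lies next to the H19 start. Both are shown on the strand of H19, with each CpG that holds a comparable cytosine in capitals.
H19 control region stretch (chr7:142580912-142581095, minus strand): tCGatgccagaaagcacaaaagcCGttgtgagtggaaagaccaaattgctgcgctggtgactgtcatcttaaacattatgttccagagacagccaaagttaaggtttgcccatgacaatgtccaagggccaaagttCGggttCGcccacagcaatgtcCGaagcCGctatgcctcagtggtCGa
H19 start stretch (chr7:142578164-142578244, minus strand): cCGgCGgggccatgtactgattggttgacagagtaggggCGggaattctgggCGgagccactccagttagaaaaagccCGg

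For Meg3 and Rasgrf1 the farthest stretches are shown, since they were the only comparable cytosines near their control regions. For Rasgrf1 a stretch nearer the start, whose DNAme ran the other way between tissues, is added. The Zdbf2 stretch lies in an intron of the annotated gene Gm11608. Here all sequences are on the plus strand, and capitals again mark CpGs with a comparable cytosine.
Meg3 far stretch (chr12:109526677-109526738, plus strand): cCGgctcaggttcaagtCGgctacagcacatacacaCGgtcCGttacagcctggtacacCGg
Rasgrf1 far stretch (chr9:89878036-89878316, plus strand): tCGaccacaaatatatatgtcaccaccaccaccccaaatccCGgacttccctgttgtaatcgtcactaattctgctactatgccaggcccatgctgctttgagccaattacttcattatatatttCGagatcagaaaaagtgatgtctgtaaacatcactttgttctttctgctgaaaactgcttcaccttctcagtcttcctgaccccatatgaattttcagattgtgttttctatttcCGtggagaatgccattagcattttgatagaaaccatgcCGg
Rasgrf1 middle stretch (chr9:89882707-89883000, plus strand): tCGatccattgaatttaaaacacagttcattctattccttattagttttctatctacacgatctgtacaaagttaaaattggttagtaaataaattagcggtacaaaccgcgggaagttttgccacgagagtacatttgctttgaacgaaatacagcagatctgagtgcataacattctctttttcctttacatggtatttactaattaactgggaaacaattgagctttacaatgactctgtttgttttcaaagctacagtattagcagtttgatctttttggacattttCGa
Zdbf2 intronic stretch (chr1:63267543-63267680, plus strand): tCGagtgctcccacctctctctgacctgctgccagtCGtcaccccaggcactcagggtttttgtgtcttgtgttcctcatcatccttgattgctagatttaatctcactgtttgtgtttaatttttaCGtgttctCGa

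The hexamer TGCCGC is bound in its methylated form by ZFP57, a zinc finger protein that keeps imprints through early development. It was searched on both strands and matched 6 times at H19, 11 at Meg3, 12 at Rasgrf1 and 2 at Zdbf2. At H19, 4 of the 6 overlapped CTCF matches. Of the windows of equal length over all gene starts, 0.186%, 0.092%, 0.920% and 32.7% held as many matches. At Meg3 5 of the 11 matches stood within 149 bases, and at Rasgrf1 6 of the 12 within 296 bases, all on the plus strand. Those clusters are shown because they lie in both control regions and held no scoreable cytosine, with the matches in capitals.
Meg3 TGCCGC cluster (chr12:109528296-109528444, plus strand): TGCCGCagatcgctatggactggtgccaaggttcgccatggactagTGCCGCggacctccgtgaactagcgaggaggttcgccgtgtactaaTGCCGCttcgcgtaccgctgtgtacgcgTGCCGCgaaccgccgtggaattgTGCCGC
Rasgrf1 TGCCGC cluster (chr9:89879598-89879893, plus strand): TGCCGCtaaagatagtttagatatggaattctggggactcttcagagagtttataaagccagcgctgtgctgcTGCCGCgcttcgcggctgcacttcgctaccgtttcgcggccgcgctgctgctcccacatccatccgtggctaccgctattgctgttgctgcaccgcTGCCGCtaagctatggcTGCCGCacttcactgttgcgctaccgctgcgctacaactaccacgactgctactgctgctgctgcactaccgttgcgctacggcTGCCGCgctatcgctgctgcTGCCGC

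The nearest comparable cytosine was 1559 bp from the Meg3 cluster and 1283 bp from the Rasgrf1 cluster.

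A cytosine was scoreable, that is, comparable, in a tissue when at least 4 libraries of every group had a value. In F0 sperm 13 cytosines were scoreable at H19, 6 at Meg3, 35 at Rasgrf1 and 11 at Zdbf2. In brain the numbers were 13, 14, 42 and 20, and in the sparser F1 sperm 8, 0, 28 and 6. Between 2.55% (Meg3) and 5.46% (H19) of the CpG cytosines on the reference were scoreable in any tissue, so that every statement here concerns a small and fixed sample of each window. Scoreable cytosines fell into 17 stretches in which neighbours lay at most 300 bp apart, and a stretch value is the mean over its cytosines, adjusted for those missing in a library. Adjusted values can leave the range of 0 to 100% by a little. The plot of DNAme by distance from the start shows all 4 windows, with little DNAme at the gene starts in sperm and stretches of high DNAme farther out.

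**Figure D1:**
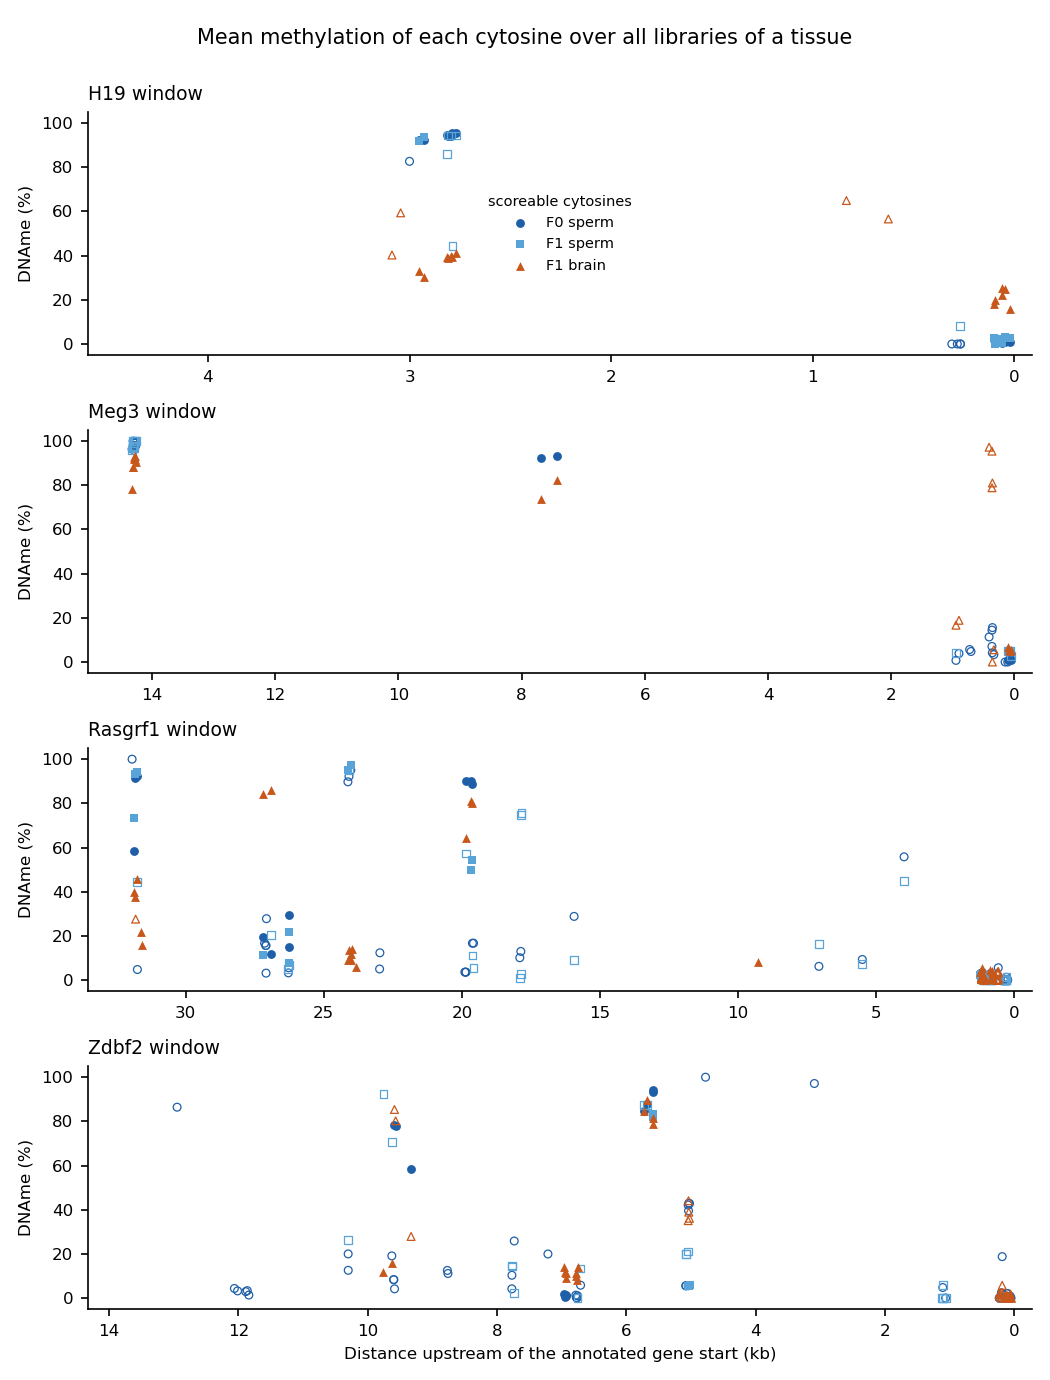
Mean DNAme (%, vertical axis) of each CpG cytosine by its distance upstream of the gene start (kb, horizontal axis) in the 4 windows, over all libraries of F0 sperm (circles), F1 sperm (squares) and F1 brain (triangles). Filled symbols are scoreable cytosines and hollow ones have a value in at least 3 libraries. At H19 the control region is high and the start low in sperm, and brain lies between them at both.

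In the H19 control region, F0 sperm was methylated almost fully. Over 51 F0 libraries the stretch 2770 to 2951 bp upstream ran from 80.0% to 100% with a median of 95.1%. Control WT F0 sperm ran from 84.1% to 99.1% with a median of 93.5% (mean 93.7% ± 4.59, SD, n = 8). In brain the same 7 cytosines ran from 21.1% to 57.1% over 32 libraries, with a median of 34.4%. No brain library reached the lowest sperm library, and the share of all stretches without such overlap was not counted. Sons of control WT sires had 30.4%, 35.1% and 55.2% as the lowest, median and highest value (37.5% ± 7.73, n = 8). F1 sperm could be scored at only 2 of the 7 cytosines, and there sons of control WT sires had 86.9% ± 14.4 (n = 4) and sons of smoked WT sires 97.5% ± 5.59 (n = 5).

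The H19 start, 22 to 100 bp upstream, showed the reverse order. F0 sperm reached at most 5.38%, with a median of 0.439%, F1 sperm ran from 0% to 6.93% and brain ran from 10.6% to 30.1% with a median of 20.1%. The stretch value over its 6 cytosines was thus higher in every brain library than in any sperm library. The share of all stretches that separated the tissues in this way was not counted.

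At Meg3, the stretch 7426 to 7684 bp upstream had a median of 95.5% in F0 sperm (73.3% to 100%) and of 78.7% in brain (60.9% to 95.2%). The far stretch, 14264 to 14323 bp upstream, was scoreable in brain, where it ran from 79.7% to 98.1% with a median of 89.4%. The sperm libraries with a value there lay between 91.7% and 100%. Next to the Meg3 start, 59 to 108 bp upstream, the median was 0% in F0 sperm and in brain, with a few libraries up to 25.0% and 38.8%.

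At Rasgrf1, the 25 cytosines 815 to 1228 bp upstream were nearly free of DNAme in F0 sperm and brain, at 0.725% ± 0.485 (n = 10) in control WT F0 sperm and 1.19% ± 0.341 (n = 8) in brain of sons of control WT sires. F1 sperm reached at most 2.49% over 18 of them. A single cytosine at 9265 bp, scoreable in brain only, had a median of 6.11%. The stretch at 19618 to 19853 bp had a median of 92.4% in F0 sperm and 75.0% in brain over 3 cytosines, and of 54.2% in F1 sperm over 2 of them. F1 sperm ran from 28.6% to 72.7% there, at 50.4% ± 21.4 (n = 6) for sons of control WT sires and 54.6% ± 14.8 (n = 4) for sons of smoked WT sires. At 23827 to 24126 bp most sperm libraries were high and brain was low, over unlike sets of cytosines. F1 sperm had a median of 97.7% over 2 cytosines (87.3% to 101.1%) and brain of 9.41% over 6 (3.27% to 24.1%). F0 sperm was not scoreable there, and its 44 libraries with a value had a median of 96.4% over 5 cytosines (41.7% to 100%). Farther out, at 26909 to 27200 bp, the order turned. F0 sperm had a median of 15.2% (2.50% to 44.4%), F1 sperm stayed between 2.50% and 22.2% at 1 of the 2 cytosines, and brain had a median of 86.0% (50.8% to 100%). The far stretch, 31593 to 31871 bp upstream and nearest to the control region, was again methylated in sperm. Its median was 81.0% in F0 sperm (65.2% to 92.7%) and 87.8% in F1 sperm (69.5% to 95.1%) over 3 cytosines. Its outermost cytosine, at position 89878037, was lower in F0 sperm (58.3% over 67 libraries) than the neighbours at 89878077 and 89878162 (91.3% and 92.4%). In brain the stretch had 5 scoreable cytosines and a median of 31.7% (19.8% to 49.1%).

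At Zdbf2, stretches lay in the Gm11608 intron at 5023 to 5044 bp and at 5586 to 5721 bp upstream. The nearer one was scoreable in F1 sperm only, with a median of 3.85% (0% to 16.7%, 10 libraries), and the few other libraries with a value had medians of 33.3% in F0 sperm (12 libraries) and 41.7% in brain (7 libraries). The farther one, called the intronic stretch here, had a median of 90.8% in F0 sperm (78.0% to 98.4%) and of 82.8% in brain (76.7% to 88.9%), and F1 sperm ran from 59.1% to 95.8% at the 2 cytosines it shared. Farther out, at 6754 to 6960 bp, F0 sperm had a median of 0% (up to 7.50%) and brain of 10.3% (up to 35.4%), over 4 cytosines in F0 sperm and 8 in brain, so that these levels are not of the same set. The stretch next to the start, 52 to 96 bp upstream, was at or close to 0% wherever it had values. At 9328 to 9756 bp different cytosines were scoreable in F0 sperm and brain, so that the levels of these tissues cannot be set side by side. F0 sperm had a median of 76.6% over 3 cytosines (27.8% to 100%). Brain had a median of 13.9% over 2 (-2.20% to 30.4%). The F0 sperm groups of this stretch are given below. In brain the Meg3 stretches at 7426 to 7684 bp and 14264 to 14323 bp and the Zdbf2 intronic stretch had medians of 78.7%, 89.4% and 82.8%. The H19 control region stretch and the Rasgrf1 far stretch had 34.4% and 31.7%. The Meg3 stretches and the Zdbf2 intronic stretch thus did not show the lower brain level of a mark on the paternal copy only. The Zdbf2 stretch at 9328 to 9756 bp was low in brain, over cytosines not scoreable in F0 sperm. The parental copies were not read apart, so whether any of these stretches carries the imprint of its gene was not tested. The plot of stretches by library gives the value of every library for 1 stretch of each window.

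**Figure D2:**
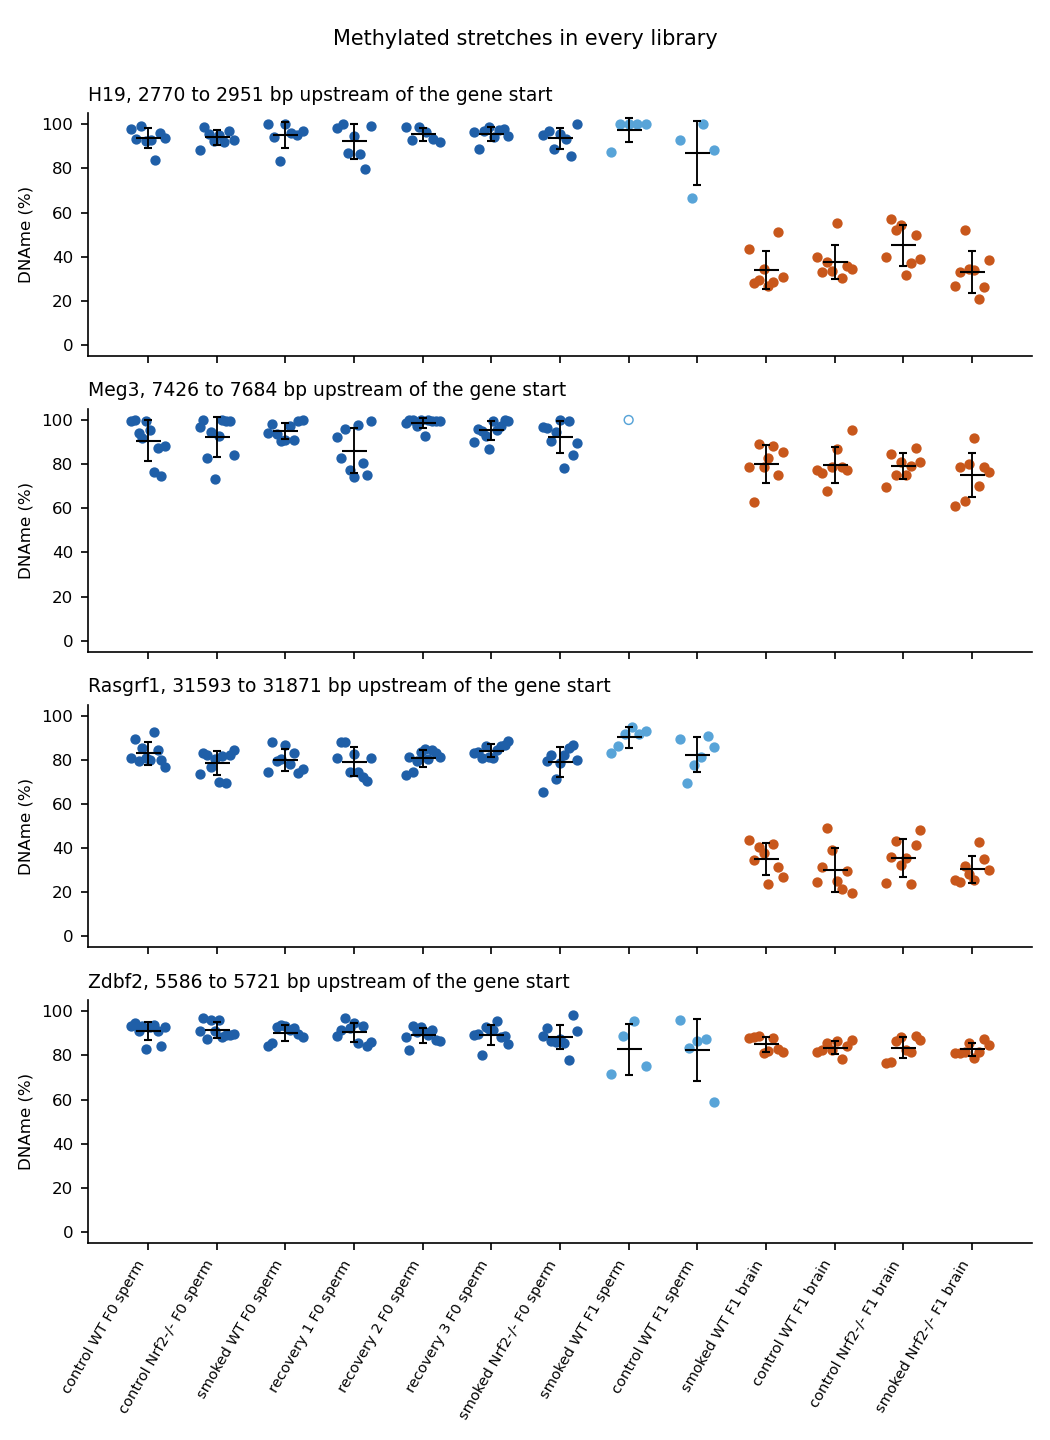
DNAme (%, vertical axis) of 1 stretch per window in every library, by group (horizontal axis), with the mean ± SD as a black bar. Hollow points mark a tissue in which the stretch was not scoreable. The H19 stretch (2770 to 2951 bp) lies at 80.0% to 100% in F0 sperm and at 21.1% to 57.1% in brain. F1 sperm is averaged over 2 of 7 cytosines at H19 and 2 of 4 at Zdbf2, and the Rasgrf1 stretch over 3 cytosines in sperm and 5 in brain.

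CS exposure, recovery and the Nrf2 genotype were then compared in 14 comparisons, interactions of smoke and genotype included. In F0 sperm each group was set against control WT, and smoked Nrf2-/- against control Nrf2-/-, so that comparisons share their control libraries. By the study's methods the unexposed control WT males were killed together with the smoked WT group, and the recovery males later. Time since exposure and age thus cannot be told apart in the recovery comparisons. Regions were runs of at least 3 scoreable cytosines at most 100 bp apart and longer than 50 bp, tested with limma over all regions of the tissue and called at a Benjamini-Hochberg adjusted p below 0.05. Of the tested regions in F0 sperm 5 lay in the windows (the H19 start, 3 at Rasgrf1 and the Zdbf2 intron), and brain added 1 at Meg3 and 1 at Rasgrf1.

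None of the regions in the windows was called in any of them. In F0 sperm 0 of 5 were called for smoked WT (0.00159% of all 62831 regions were), recovery 1 (0.0%), recovery 2 (0.00637%), recovery 3 (0.043%), control Nrf2-/- (0.409%) and smoked Nrf2-/- (0.357%) against control WT, for smoked against control Nrf2-/- (0.00637%) and for the interaction (0.0%). In F1 sperm 0 of 3 were called between sons of smoked and control WT sires (0.0% of 33449). In brain 0 of 7 were called for smoked WT (0.00124% of 80920), control Nrf2-/- (0.0124%) and smoked Nrf2-/- sires (0.0198%) against control WT sires, for smoked against control Nrf2-/- sires (0.00124%) and for the interaction (0.0%). The background was itself close to nil, so a count of 0 does not set the windows apart from the rest of the genome. Over the 78 tests 0 had an unadjusted p below 0.05 (6.78% of all region tests did), and the smallest adjusted p was 0.487. The differences ran from -7.45 to 7.76 percentage points (points), and their 95% intervals reached from -15.98 to 15.6 points.

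Whole windows gave the same picture. Their means mix stretches of high and low DNAme. In F0 sperm 25 of the 35 Rasgrf1 cytosines and 6 of the 13 at H19 lie near the start, with little DNAme. A window mean thus does not stand for the control region alone. In F0 sperm 0 of 4 windows were called for smoked WT (0.0% of 31206 gene windows), recovery 1 (0.0%), recovery 2 (0.00961%), recovery 3 (0.016%), control Nrf2-/- (0.506%), smoked Nrf2-/- (0.362%), smoked against control Nrf2-/- (0.0032%) and the interaction (0.0%). In F1 sperm, where Meg3 had no scoreable cytosine, 0 of 3 were called (0.0%). In brain 0 of 4 were called for smoked WT (0.0%), control Nrf2-/- (0.00873%), smoked Nrf2-/- (0.00582%), smoked against control Nrf2-/- sires (0.0145%) and the interaction (0.0%). Of 55 window tests 3 had an unadjusted limma p below 0.05 (5.45%, against 7.06% of all window tests). These were H19 for smoked against control Nrf2-/- sires in brain (-8.42 points), Zdbf2 for smoked Nrf2-/- against control WT sires in brain (-3.26 points, adjusted p = 0.514) and the Rasgrf1 interaction in brain (-2.45 points, adjusted p = 0.422). Single cytosines gave 0 calls in 1007 tests (0.0123% of all cytosine tests were called) and 66 unadjusted p below 0.05 (6.55%, against 5.26%).

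**Figure D3:**
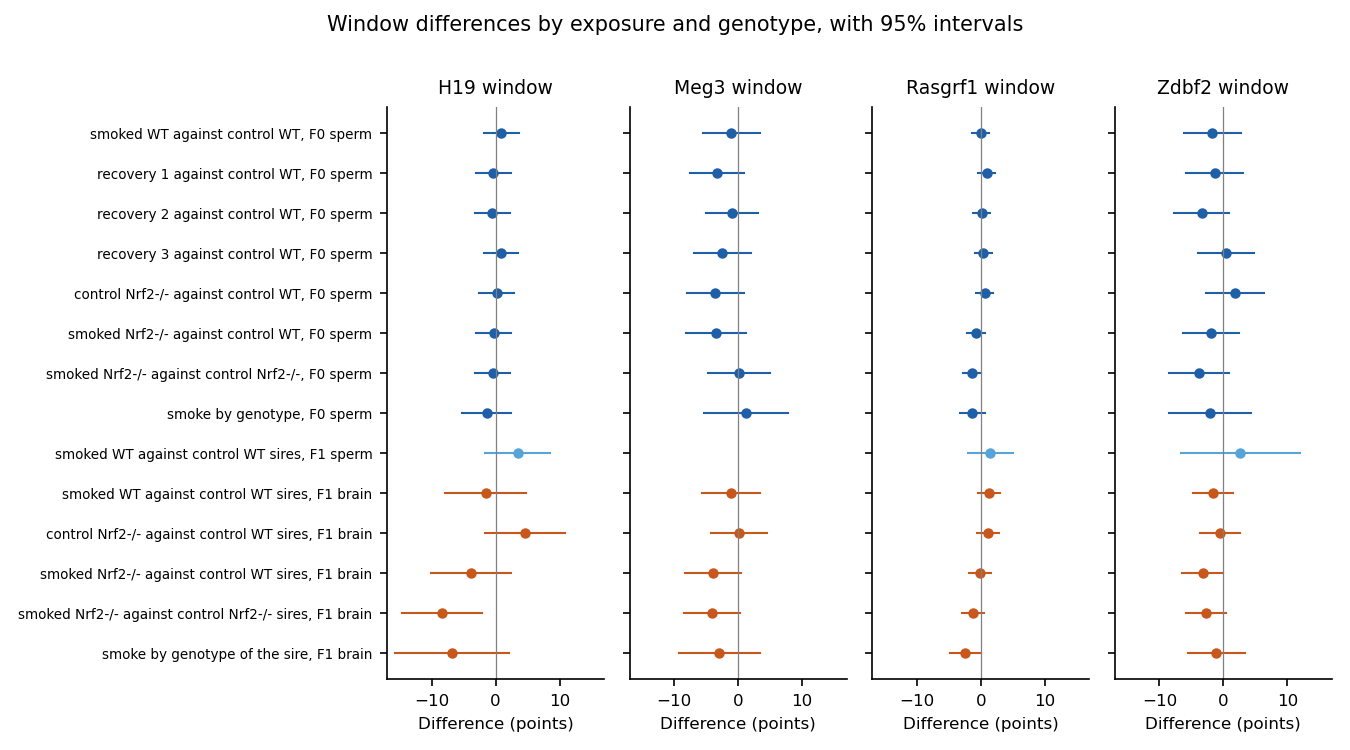
Difference in window DNAme (percentage points, horizontal axis) with its 95% limma interval for each exposure and genotype comparison (vertical axis) in the 4 windows. Meg3 has no value in F1 sperm. The widest departure is H19 in brain of sons of smoked against control Nrf2-/- sires, at -8.42 points (-14.7 to -2.14), and 0 of the 55 differences were called.

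At H19, the F0 sperm groups lay within 1.5 points of each other when values were adjusted for missing cytosines. With a plain mean they ran from 41.4% (recovery 2) to 48.2% (control Nrf2-/-). The window mean of 13 cytosines was 51.0% ± 2.59 (SD, n = 9) for control WT and 51.9% ± 3.13 (n = 9) after CS exposure. Recovery 1, 2 and 3 had 50.6% ± 3.62 (n = 9), 50.5% ± 4.69 (n = 9) and 51.9% ± 1.39 (n = 10). Nrf2-/- males had 51.2% ± 1.44 (n = 9) unexposed and 50.7% ± 2.22 (n = 9) exposed. All groups overlapped. The control region stretch alone differed from control WT by 1.47 points after CS exposure (95% interval -3.53 to 6.48, limma adjusted p = 1.00) and by -1.41, 1.80 and 2.07 points in the recovery groups. Single libraries weigh on these values. Control WT column 8 had 84.1% (others 92.4% to 99.1%) and smoked WT column 4 had 83.2% (others 94.3% to 100%).

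In brain the H19 control region stretch varied within each group of sons. It ran from 26.9% over 30.1% (median) to 51.0% in sons of smoked WT sires (34.2% ± 8.68, n = 8). The values were 31.6%, 44.8% and 57.1% (lowest, median, highest) in sons of control Nrf2-/- sires (45.1% ± 9.33, n = 8). Sons of smoked Nrf2-/- sires ran from 21.1% over 33.6% to 52.2% (33.3% ± 9.47, n = 8). Every pair of groups overlapped. Smoked against control Nrf2-/- sires differed by -11.8 points (SE 4.32, 95% interval -20.7 to -2.99), which did not pass over all stretches (limma adjusted p = 0.379). The window as a whole differed by -8.42 points (adjusted p = 0.305, 0.161 to 0.499 over the alternatives tried). The difference was -3.39 points for smoked WT (adjusted p = 1.00) and 7.58 points for control Nrf2-/- sires (adjusted p = 0.812) against control WT sires, and the interaction was -8.44 points (adjusted p = 0.698). Among sons of control WT sires 1 library (column 5) had 55.2% and the others 30.4% to 40.04%. The stretch was not fitted again without that library.

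Other measures moved with this H19 difference. All 4 windows were lower in sons of smoked than of control Nrf2-/- sires. Of the 13037 regions of the whole table that passed the rule of size (a change above 5 points, described below) between these groups, 783 were higher and the rest lower. The 7 regions at maternally methylated loci had a median difference of -7.47 points between the same groups, from a median level of 27.5% in sons of control Nrf2-/- sires to 18.5% in sons of smoked Nrf2-/- sires. Over libraries, 5 of the 32 brain libraries had medians of 4.83% to 18.6% at those loci, and the other 27 had 20.1% to 36.05%. Of the 5, 1 was a son of a smoked WT sire (column 8) and 4 were sons of smoked Nrf2-/- sires (columns 2, 4, 5 and 6). Their H19 stretch values were 30.7%, 33.0%, 34.4%, 34.1% and 21.1%. The other 4 sons of smoked Nrf2-/- sires had 26.7%, 52.2%, 26.4% and 38.4%. The part of these libraries, and of the lower values across the table, in the H19 difference was not tested.

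At Meg3 the F0 sperm window mean of 6 cytosines lay between 30.5% and 34.0% in all groups, with the highest group mean in control WT (34.0% ± 8.10, n = 7), where 1 library had 52.1% and the others 29.2% to 33.3%. Its level reflects 4 cytosines with little DNAme at the start beside 2 with much farther out. Against control WT the groups differed by -3.57 to -0.966 points, with limma adjusted p of 0.679 to 1.00. Without that 1 library (column 1) the difference turned to 1.93 points for smoked WT, 2.05 for recovery 2 and 0.543 for recovery 3, and shrank to -0.303 for recovery 1, -0.558 for control Nrf2-/- and -0.448 for smoked Nrf2-/-. In brain the far stretch was 89.97% ± 3.18 (n = 8) in sons of control WT sires, 89.8% ± 5.35 (n = 8) for smoked WT, 90.4% ± 3.61 (n = 8) for control Nrf2-/- and 87.2% ± 4.60 (n = 8) for smoked Nrf2-/- sires. The 95% intervals of its 4 pairwise differences allow at most 4.75 points upward and 7.47 points downward.

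The far region of Rasgrf1 gave the largest differences among the regions. In F0 sperm it ran from 76.6% over 80.7% to 92.7% in control WT (82.9% ± 5.04, n = 10). Smoked WT had 79.98% ± 5.04 (n = 9), recovery 1, 2 and 3 had 79.1% ± 6.64 (n = 9), 80.6% ± 3.97 (n = 10) and 84.2% ± 2.78 (n = 10), control Nrf2-/- had 78.4% ± 5.53 (n = 10) and smoked Nrf2-/- 78.9% ± 6.82 (n = 9). The differences from control WT were -2.91, -3.76, -2.30, 1.30, -4.47 and -3.95 points, with limma adjusted p of 0.659 to 1.00. In F1 sperm sons of smoked WT sires ran from 83.1% to 95.1% with a median of 91.6% (90.1% ± 4.55, n = 6). Sons of control WT sires ran from 69.5% to 90.7% with a median of 83.4% (82.3% ± 8.01, n = 6). The groups overlapped, and the difference of 7.76 points (SE 3.58, 95% interval -0.109 to 15.6) had a limma adjusted p of 0.902. In brain, over the same 3 cytosines, sons of smoked WT sires had 42.9% ± 5.75 and sons of control WT sires 37.1% ± 7.35 (n = 8 each), a difference of 5.73 points (-0.297 to 11.8, adjusted p = 1.00). Control and smoked Nrf2-/- sires differed from control WT sires by 5.58 and 3.86 points (adjusted p = 0.641 and 0.594), and the interaction was -7.45 points (adjusted p = 0.595).

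By a rule of size without a test (at least 33.3% of cytosines and the mean changed by more than 5 points), only the far region of Rasgrf1 counted as changed among regions joined to 100 bp. It did so in F1 sperm of sons of smoked WT sires (1 of 3, against 13.6% of all regions) and in brain for smoked WT (1 of 7, against 8.33%) and control Nrf2-/- sires (1 of 7, against 7.51%). In the other exposure and genotype comparisons 0 members passed it (6.73% of all regions did). With more than 10 points asked for, 0 of the 3 passed. The members that pass depend on the joining distance. Joined to 300 bp, the brain call for smoked WT sires fell on the Zdbf2 stretch at 6754 to 6960 bp and no longer on Rasgrf1 (1 of 9, against 10.1%), and F0 sperm comparisons gained calls at Rasgrf1 and Zdbf2.

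Elsewhere at Rasgrf1 the 19.6 kb stretch of F0 sperm had 85.0% ± 11.1 (n = 10) for control WT and 90.98% ± 10.8 (n = 9) for smoked WT. Recovery 1, 2 and 3 had 95.2% ± 4.61, 90.1% ± 7.97 and 94.6% ± 4.21 (n = 9 each). Nrf2-/- males had 89.7% ± 7.20 (n = 10) unexposed and 82.3% ± 16.1 (n = 9) exposed. Recovery 1 differed by 10.2 points (95% interval 1.38 to 18.96) and recovery 3 by 9.62 points (0.831 to 18.4), and neither was called (limma adjusted p = 0.996 and 0.764). Its interaction of smoke and genotype was -13.4 points (-25.8 to -0.983, adjusted p = 1.00). In all, 0 of 104 tests of such stretches were called by limma (0.0664% of all were), and 4 had an unadjusted p below 0.05 (6.52% of all did), these 3 and the H19 control region in brain. The 2 cytosines at 26253 and 26273 bp upstream, scoreable in sperm only, ran from 0% to 57.1% over all F0 libraries. They averaged 43.9% ± 17.5 (n = 4) in control Nrf2-/- males, 23.6% ± 16.7 (n = 7) in control WT and 18.75% ± 11.9 (n = 5) in smoked Nrf2-/- males, and 15.04% to 25.7% in the other 4 groups. At 89883635 control Nrf2-/- differed from control WT by 30.1 points (limma adjusted p = 0.363) and smoked from control Nrf2-/- by -31.2 points (adjusted p = 0.708), and neither was called.

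At Zdbf2 the intronic stretch of F0 sperm had 91.0% ± 4.08 (n = 10) for control WT and 90.2% ± 3.55 (n = 9) for smoked WT. The recovery groups had means of 90.5%, 89.2% and 89.3%, control Nrf2-/- 91.5% and smoked Nrf2-/- 88.3%. No group differed from control WT by more than 2.74 points, and limma adjusted p were 0.788 to 1.00. In brain its 4 group means lay between 82.8% and 85.0%. At 9328 to 9756 bp F0 sperm varied more, over 3 cytosines. Control WT had 75.6% ± 15.1 (n = 6), smoked WT 67.7% ± 18.6 (n = 9), control Nrf2-/- 82.8% ± 8.28 (n = 6) and smoked Nrf2-/- 68.0% ± 25.2 (n = 7). Recovery 1, 2 and 3 had 69.5% ± 15.4 (n = 9), 57.4% ± 19.3 (n = 7) and 82.2% ± 6.71 (n = 8). All groups overlapped and limma called no difference. Joined to 300 bp, it passed the rule of size in every F0 sperm comparison (4.14% to 8.12% of all regions did). The stretch at 6754 to 6960 bp was 16.4% ± 11.7 (n = 8) in brain of sons of control WT sires, 8.67% ± 5.40 (n = 8) for smoked WT, 14.96% ± 8.47 (n = 8) for control Nrf2-/- and 8.20% ± 6.79 (n = 8) for smoked Nrf2-/- sires, with all groups overlapping. Against control WT sires the smoked WT difference was -7.70 points (95% interval -16.1 to 0.736, limma adjusted p = 1.00) and the smoked Nrf2-/- difference -8.17 points (-16.6 to 0.264, adjusted p = 0.602).

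Tissues were compared in control WT libraries, where background calls were frequent. F1 brain against F0 sperm, a comparison added after the data had been seen, called 3 of the 5 regions in the windows (58.7% of all regions were called). The Rasgrf1 far region was 45.8 points lower in brain (37.1% ± 7.35, n = 8, against 82.9% ± 5.04, n = 10, 95% interval -50.9 to -40.6, limma adjusted p = 4.27e-30). The H19 start was 20.4 points higher (adjusted p = 1.68e-23), and neither of these overlapped between tissues. How many of all regions lacked overlap was not counted. The Zdbf2 intron was 7.51 points lower (83.5% ± 2.92 against 91.0% ± 4.08, adjusted p = 0.000270) with overlapping libraries. The Rasgrf1 regions near the start did not pass (adjusted p = 0.202 and 0.952).

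Joining cytosines up to 300 bp apart added the H19 control region, which was 56.1 points lower in brain (37.5% ± 7.73, n = 8, against 93.7% ± 4.59, n = 8, 95% interval -62.7 to -49.5, limma adjusted p = 2.73e-26), while 67.6% of all such stretches were called. The Rasgrf1 19.6 kb stretch was 8.44 points lower (adjusted p = 0.0736). Of 60 single cytosines 27 were called (34.3% of all), 13 of them higher in brain (16.0%) and 14 lower (18.3%). All 7 cytosines of the H19 control region were lower in brain, by 47.5 to 67.6 points (18.3% of all cytosines were called lower). At each the libraries of the 2 tissues did not overlap, and the share of all cytosines without overlap was not counted. The pair of Rasgrf1 cytosines 26.9 to 27.2 kb upstream was higher in brain, by 68.7 points at 89882708 (86.9% ± 10.4, n = 5, against 18.2% ± 8.73, n = 10) and by 70.8 points at 89882999 (85.3% ± 15.5, n = 8, against 14.6% ± 9.50, n = 10, limma adjusted p = 3.71e-28). The H19 and Rasgrf1 windows thus held cytosines that moved in opposite directions. The plot of sperm against brain shows them on both sides of the diagonal. As whole windows only H19 was called, at 20.1 points lower in brain (30.1% ± 5.79, n = 8, against 50.2% ± 3.52, n = 9, adjusted p = 6.04e-12), 1 of 4 against 70.3% of all gene windows. Meg3, Rasgrf1 and Zdbf2 differed by -2.33, -0.874 and 3.48 points (adjusted p = 0.520, 0.210 and 0.0796). Zdbf2 turned to -13.8 points with windows 1.5 times as long (adjusted p = 8.14e-10), and Rasgrf1 was then -10.7 points (adjusted p = 1.06e-17).

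**Figure D4:**
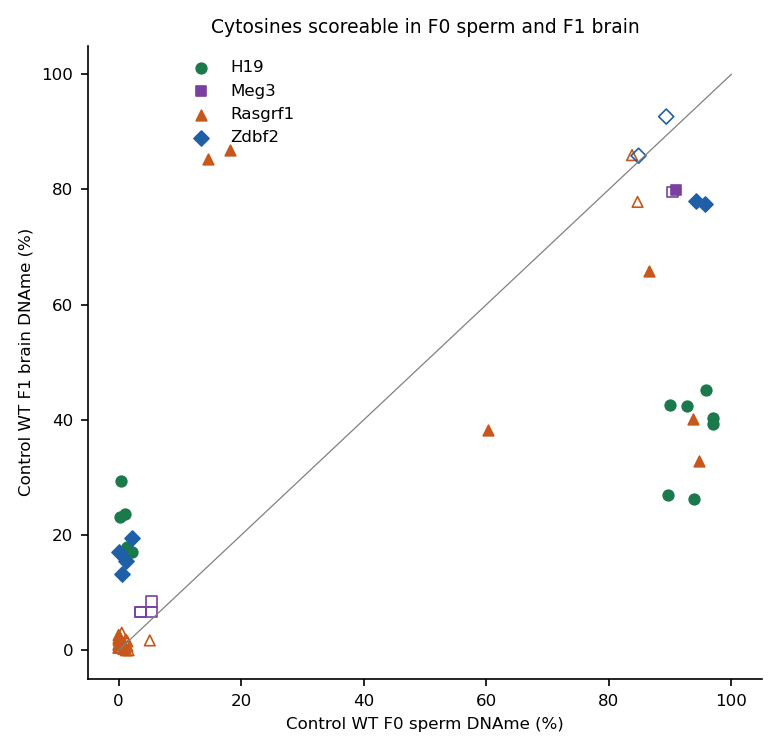
Mean DNAme (%) of 60 cytosines in control WT F1 brain (vertical axis) against control WT F0 sperm (horizontal axis), by window. Filled symbols were called by limma, hollow ones were not, and the diagonal marks equality. The 7 cytosines of the H19 control region lie far below the diagonal and 2 of Rasgrf1 far above it.

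Against F1 sperm, which shares the cross with the brain samples, 3 regions were tested and 2 were called (60.3% of all). The Zdbf2 intron was not among them. The H19 start was 20.2 points higher in brain (21.4% ± 5.04, n = 8, against 1.17% ± 1.19, n = 5, 95% interval 16.8 to 23.6, limma adjusted p = 8.21e-20) and the Rasgrf1 far region 45.1 points lower (37.1% ± 7.35 against 82.2% ± 8.16, n = 6, adjusted p = 2.09e-26). The Rasgrf1 region 1164 to 1228 bp upstream differed by 0.948 points (adjusted p = 0.0657). In a fit of the 6 F1 groups alone, also added after the data had been seen, it was called as well (adjusted p = 0.0471), making 3 of 3 against 57.8% of all regions. That call was lost in 10 of the 14 fits that left out 1 library (adjusted p = 0.0326 to 0.111, highest without control WT F1 sperm column 2), and with a plain mean, averaged strands or joining to 300 bp 2 of 3 were called (57.6%, 57.2% and 62.1% of all regions). Neither of the 2 whole windows was called in the fit of all 13 groups (64.8% of all gene windows were), where the Rasgrf1 window of 24 cytosines differed by 0.247 points (95% interval -1.79 to 2.29, adjusted p = 0.859). In the fit of the 6 F1 groups alone the direction turned. The Rasgrf1 window, then with 26 cytosines, differed by -6.03 points in brain (adjusted p = 1.72e-05), 1 of 2 against 63.9%. With windows 1.5 times as long the fit of all 13 groups called it the other way, at 2.76 points (adjusted p = 0.0166). The 2 cytosines added by the fit of the 6 F1 groups alone lie inside the 35 kb window, at 89885782 and 89885887. They were 85.7 and 88.3 points lower in brain (8.85% against 94.5%, and 9.16% against 97.5%). Of 34 single cytosines 15 were called (47.4% of all), 10 higher in brain (28.5%) and 5 lower (18.9%).

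F1 and F0 sperm, both from control WT lines, separated at few of the shared cytosines. Of the 3 regions 0 were called by limma (39.1% of all regions were), and 0 had an unadjusted p below 0.05. The Rasgrf1 far region differed by -0.687 points (95% interval -6.40 to 5.02) and the H19 start by 0.224 points (-3.04 to 3.49). Of 34 cytosines 4 were called (29.1% of all), and all 4 were lower in F1 sperm (22.5%). They were 89890253 and 89890290 of the Rasgrf1 19.6 kb stretch and 63267671 and 63267679 of the Zdbf2 intron. At 89890253 F1 sperm ran from 16.7% to 72.7% (46.6% ± 25.8, n = 6) and F0 sperm had 83.8% ± 12.4 (n = 10), a difference of -37.2 points (limma adjusted p = 7.84e-07). At 89890290 the difference was -30.4 points (54.2% ± 18.4, n = 6, against 84.7% ± 16.2, n = 10, adjusted p = 7.05e-05). Both Rasgrf1 cytosines overlapped between the generations. At 89890253 brain of the same cross was 39.4 points above F1 sperm (85.96% ± 6.75, n = 8, adjusted p = 2.57e-07) and 2.17 points from F0 sperm (adjusted p = 0.897). The Zdbf2 cytosines differed in F1 sperm by -14.04 points (adjusted p = 0.00350) and -10.9 points (adjusted p = 0.0167). Generation, maternal strain and the smaller number of cytosines read in F1 sperm cannot be told apart here.

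The Rasgrf1 window was also lower in F1 than in F0 sperm by 3.69 points over 24 cytosines (14.99% ± 4.39, n = 5, against 18.7% ± 1.504, n = 10, limma adjusted p = 0.00104), 1 of 2 windows against 41.6% of all. That call was lost without the second control WT F1 sperm column (-1.91 points, adjusted p = 0.112). It was also lost with a plain mean (adjusted p = 0.137) and when only these 2 groups were fitted (adjusted p = 0.0630).

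Beyond those called, 4 cytosines differed by more than 30 points between F0 and F1 control sperm on few libraries. In the H19 control region 142580930 was 97.1% (n = 8) in F0 and 47.9% (n = 2) in F1 sperm, while its neighbours at 142580913 and 142580936 had 94.4% in the 3 F1 libraries with a value. At Rasgrf1 89905916 was 62.5% (n = 2) against 29.4% (n = 3), and at Zdbf2 63263639 and 63265532 had 16.7% (n = 1) against 51.7% (n = 3) and 33.3% (n = 2) against 0% (n = 5). No test was made on them.

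Few genes around the control regions could be read at their starts, and those had mostly little DNAme there. Of the cluster neighbours (Igf2, Ins2, Dlk1, Rtl1, Rian, Mirg, Dio3 and Gpr1) regions within 2 kb of the start were found at Dlk1, the growth regulator at the other end of the Meg3 cluster, and Dio3, which inactivates thyroid hormone. Their median per library was 0% to 2.08% in F0 sperm over 8 regions and 1.03% to 3.85% in brain over 10. Most of these regions were at Dio3 (7 in F0 sperm and 8 in brain), where the highest region mean in brain was 10.5%. The other neighbours had none. Within the first 2 kb of the 4 genes themselves, regions were found at Zdbf2 (3) in F0 sperm, with 0% to 1.93%, and at Zdbf2 (3) and Rasgrf1 (1) in brain, with 0.911% to 4.15%. H19 and Meg3 had none. Of both lists 0 regions were called by limma in an exposure or genotype comparison, where 0.0% to 0.409% of all regions were. Between brain and F0 sperm 2 of 8 neighbour regions and 2 of the 3 Zdbf2 regions were called, all higher in brain, where 58.7% of all regions were called in either direction.

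The maternally methylated loci, which carry the mirror image of the mark, were measured in the same way. Regions were found at Peg3, Peg10, Plagl1, Kcnq1ot1, Nap1l5 and Zrsr1, while Mest and Snrpn had none. All 7 regions were called higher in brain than in F0 sperm, with a median difference of 26.6 points (58.7% of all regions were called in either direction). The Plagl1 region had little DNAme in both, with means of 2.43% over brain and 0.644% over F0 sperm libraries. The other regions had brain means of 20.1% to 43.1%. Of 4 regions 4 were called higher than in F1 sperm, with a median of 26.9 points (60.3% of all). The windows did not run one way against F0 sperm, since the H19 start was also higher in brain while the H19 control region and the Rasgrf1 far region were lower. Between F1 and F0 sperm 0 of 4 of these regions were called by limma (39.1% of all).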

How the data were processed

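RRBS was measured in 112 libraries of sperm and prefrontal cortex. The authors aligned reads to mm10 with Bismark (its version is not given in the sources used here) and deposited, per group, the percent of reads that stayed unconverted at each CpG cytosine in each library. The methods asked for coverage above 8 reads in at least 4 replicates before a CpG was scored, and whether the deposited values were held to this is not stated. The tables give no coverage, so the depth of a value is unknown. Columns carry facility numbers that match no sample label, so they were assigned to groups by table and are named by their order (0 unused columns). A control WT F1 brain sample is WT by title and Nrf2-/- by its strain label. It was kept by title, and its column is unknown. The study's methods count animals per group, although the labels do not tie a library to an animal. The p-values measure the spread between libraries, which may in part be technical. Neither the sample titles nor the methods say which sons shared a sire or litter. F1 tests took each library as independent, although exposure and genotype were those of the sire.

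The windows, gene lists and named features were chosen with earlier results of these data known. Named were all 4 windows, regions called or with the smallest p, those around motif matches, and cytosines that differed by more than 30 points between F0 and F1 control sperm.

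A cytosine entered when at least 4 libraries of every group had a value. Regions joined cytosines at most 100 bp apart (at least 3, longer than 50 bp). Windows of 55413 genes of GENCODE vM21 served as the table for the 4 windows. A library's value was adjusted for its missing cytosines, and at least 50% of them had to be covered. limma 3.58.1 (R 4.3.3) fitted group means over F0 sperm, F1 sperm, brain or all 13 groups, with Benjamini-Hochberg adjustment over the whole table. Fits of F0 sperm with brain, of the 6 F1 groups alone and of single cytosines were added after the data had been seen. The scripts were tested on simulated data. Alternatives were a plain mean, at least 6 libraries per group, averaged strands, a log2 scale, joining to 300 bp, windows 1.5 times as long, a size threshold of 10 points, fits of the compared groups only and leaving out each library in turn. Annotation and sequences are those of GRCm38 (RefSeq GRCm38.p6 and GENCODE vM21), the same build as mm10.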

Additional observations from a re-analysis of the deposited data

Results flagged for a closer look

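Within each group of 4 to 10 libraries, a library was singled out when its gap to the nearest other library, divided by the range of the group, passed Dixon's 95% critical value. Chance singles out about 1 in 20 groups. Of 50 window groups 8 held such a library, and of 162 stretch groups 25 did. Many of the stretches lie close to 0% or 100%, where the other libraries are nearly equal. Columns are named by their order in the group's table.

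At H19, in the whole window, control WT F0 sperm column 8 had 45.4% (lowest, others 50.5% to 55.3%), recovery 2 F0 sperm column 2 had 38.5% (lowest, others 49.9% to 53.6%) and recovery 3 F0 sperm column 2 had 48.4% (lowest, others 51% to 53.2%). There, control WT F1 brain column 5 had 43.5% (highest, others 25% to 30.8%). At H19, in the stretch 22 to 100 bp upstream, smoked WT F0 sperm column 7 had 4.55% (highest, others 0% to 2.07%), recovery 2 F0 sperm column 6 had 1.97% (highest, others 0% to 0.877%) and smoked Nrf2-/- F0 sperm column 3 had 5.38% (highest, others 0% to 2.3%). At H19, in the stretch 2770 to 2951 bp upstream, control WT F0 sperm column 8 had 84.1% (lowest, others 92.4% to 99.1%), smoked WT F0 sperm column 4 had 83.2% (lowest, others 94.3% to 100%) and recovery 3 F0 sperm column 2 had 88.9% (lowest, others 94.3% to 98.8%). There, smoked WT F1 sperm column 2 had 87.5% (lowest, others 100% to 100%) and control WT F1 brain column 5 had 55.2% (highest, others 30.4% to 40.04%).

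At Meg3, in the whole window, control WT F0 sperm column 1 had 52.1% (highest, others 29.2% to 33.3%), smoked WT F0 sperm column 5 had 40.5% (highest, others 30.3% to 33.3%) and control WT F1 brain column 6 had 79.1% (highest, others 58.9% to 66.9%). At Meg3, in the stretch 59 to 108 bp upstream, control WT F0 sperm column 1 had 25% (highest, others 0% to 6.25%), control Nrf2-/- F0 sperm column 9 had 2.27% (highest, others 0% to 0%) and smoked WT F0 sperm column 5 had 12.5% (highest, others 0% to 0%). There, smoked WT F1 brain column 3 had 25% (highest, others 0% to 9.38%), control WT F1 brain column 6 had 38.8% (highest, others 0% to 9.09%) and smoked Nrf2-/- F1 brain column 7 had 12.9% (highest, others 0% to 2.78%). At Meg3, in the stretch 7426 to 7684 bp upstream, recovery 2 F0 sperm column 6 had 92.9% (lowest, others 97.2% to 100%). At Meg3, in the stretch 14264 to 14323 bp upstream, control Nrf2-/- F1 brain column 4 had 98.1% (highest, others 85.6% to 91.5%).

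At Rasgrf1, in the whole window, smoked WT F1 sperm column 4 had 26.1% (highest, others 21.1% to 22.3%). At Rasgrf1, in the stretch 815 to 1228 bp upstream, smoked WT F0 sperm column 3 had 3.21% (highest, others 0.2% to 1.37%) and smoked WT F1 sperm column 4 had 2.49% (highest, others 0% to 0.926%). At Rasgrf1, in the stretch 19618 to 19853 bp upstream, smoked WT F0 sperm column 4 had 66.7% (lowest, others 83.3% to 100%) and smoked Nrf2-/- F0 sperm column 3 had 47.5% (lowest, others 74.6% to 100%). At Rasgrf1, in the stretch 26909 to 27200 bp upstream, recovery 2 F0 sperm column 8 had 44.4% (highest, others 4.88% to 24%) and smoked Nrf2-/- F1 brain column 7 had 50.8% (lowest, others 78.6% to 99.2%).

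At Zdbf2, in the stretch 52 to 96 bp upstream, smoked Nrf2-/- F1 brain column 1 had 1.28% (highest, others 0% to 0%). At Zdbf2, in the stretch 6754 to 6960 bp upstream, recovery 1 F0 sperm column 2 had 7.5% (highest, others 0% to 1.39%) and smoked Nrf2-/- F0 sperm column 7 had 7.5% (highest, others 0% to 1.56%).

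Several libraries recurred. Control WT F1 brain column 5 was the highest of its group at H19 in the window and in the control region stretch. Control WT F1 brain column 6, control WT F0 sperm column 1 and smoked WT F0 sperm column 5 were the highest at Meg3 in the window and next to the start. Control WT F0 sperm column 8 and recovery 3 F0 sperm column 2 were the lowest at H19 in the window and in the control region stretch. Smoked WT F1 sperm column 4 was the highest at Rasgrf1 in the window and in the stretch 815 to 1228 bp upstream. With any of these libraries left out, no region or window of the 4 genes was called in an exposure comparison. Stretches joined to 300 bp were not fitted again in this way.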

How the results depend on the processing

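No paired analysis was possible because the columns carry no replicate number that ties them to the labels. Over the 14 exposure and genotype comparisons the count of called regions and of called windows was 0 under every alternative run, each left-out library included. The percents carry no read counts, so the part of the spread that comes from read depth could not be computed. Counts by size moved with cytosines joined up to 300 bp apart, given here with the percent of all regions that passed. In F0 sperm, of 7 members, they were 2 for smoked WT (5.03%), 2 for recovery 1 (5.44%), 2 for recovery 2 (4.14%), 2 for recovery 3 (6.78%), 1 for control Nrf2-/- (8.12%), 1 for smoked Nrf2-/- (7.04%) and 2 for smoked against control Nrf2-/- (6.55%). In brain, of 9 members, they were 1 for smoked WT (10.1%), 2 for control Nrf2-/- (9.43%), 1 for smoked Nrf2-/- (14.5%) and 3 for smoked against control Nrf2-/- sires (17%). For F1 brain against F0 sperm 5 of 6 passed (59.4%). Above 10 points 0 passed for smoked WT sires in F1 sperm (of 3, 2.55%) and for smoked WT (of 7, 1.39%) and control Nrf2-/- sires (of 7, 0.884%) in brain.

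Called windows for F1 brain against F1 sperm were 1 of 2 with windows 1.5 times as long (68.8% of all gene windows, Rasgrf1 at 2.76 points) and 1 of 2 in the fit of the 6 F1 groups alone (63.9%, Rasgrf1 at -6.03 points, the opposite direction), against 0 of 2 (64.8%). For F1 against F0 sperm they were 0 of 2 with a plain mean (38.2%) and 0 of 2 with only those groups (34.9%), against 1 of 2 (41.6%), and 0 to 1 with a library left out. The Rasgrf1 window was -2.38 points with a plain mean and -1.91 points without control WT F1 sperm column 2. For F1 brain against F0 sperm they were 2 of 3 with at least 6 libraries (70.2%) and 3 of 4 with longer windows (74.7%), against 1 of 4 (70.3%), and 1 to 2 with a library left out (2 without control WT F0 sperm column 6 or control WT F1 brain column 1, 2 or 4). Called regions for F1 brain against F1 sperm were 2 to 3 of 3 (3 without control WT F1 sperm column 5, on the log2 scale, where 56.3% of all regions were called, and with only those groups, 53.4%, against 60.3%).

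Signs were not stable. Of 152 region and window tests 65 turned sign under at least 1 alternative. None of the 7 called tests did, and the 65 had differences of at most 3.81 points. After turning, 2 were called: the Rasgrf1 window for F1 brain against F1 sperm (0.247 points, -6.03 in the fit of the 6 F1 groups alone) and the Zdbf2 window for F1 brain against F0 sperm (3.48 points, -13.8 with longer windows). Among the tests with the smallest p of a comparison, the turns were these. The Zdbf2 window for smoked against control WT in F0 sperm was 4.83 points with a plain mean. The Meg3 window for recovery 3 was 0.543 points without control WT F0 sperm column 1 (-3.28 to 0.543 with each library left out). The H19 window for F1 brain against F1 sperm was -2.25 points with strands averaged, -0.264 without control WT F1 sperm column 2 and -0.538 without control WT F1 brain column 5 (-0.538 to 2.33 with each library left out). The Rasgrf1 region near the start for F1 against F0 sperm was 0.0098 points without control WT F0 sperm column 4 (-0.257 to 0.0098 with each library left out).

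Window levels moved by more than 1 SD in the following cases. With a plain mean in place of the adjusted one, the H19 window had 48% (control WT), 48.2% (control Nrf2-/-), 45.8% (smoked WT), 43.7% (recovery 1), 41.4% (recovery 2), 46.4% (recovery 3), 44.6% (smoked Nrf2-/-) in F0 sperm and 21.2% (smoked WT) in F1 sperm. There, the Meg3 window had 26.4% (control Nrf2-/-), 26.9% (smoked WT), 25.5% (recovery 1), 30.4% (recovery 2), 27.5% (recovery 3), 25.7% (smoked Nrf2-/-) in F0 sperm and 71.6% (control Nrf2-/-) in F1 brain. There, the Rasgrf1 window had 16.1% (recovery 2) in F0 sperm and 19.6% (smoked WT) in F1 sperm. There, the Zdbf2 window had 52.4% (control Nrf2-/-), 58.7% (smoked WT), 59.4% (recovery 1), 60.6% (smoked Nrf2-/-) in F0 sperm. With windows 1.5 times as long, the Meg3 window had 58.9% (smoked WT), 60.1% (control Nrf2-/-), 54.4% (smoked Nrf2-/-) in F1 brain. There, the Rasgrf1 window had 36.3% (control WT), 36.9% (control Nrf2-/-), 36.7% (smoked WT), 36.4% (recovery 1), 37% (recovery 2), 37.6% (recovery 3), 36.3% (smoked Nrf2-/-) in F0 sperm, 29.9% (smoked WT), 27% (control WT) in F1 sperm and 24% (smoked WT), 23.4% (control WT), 24.3% (control Nrf2-/-), 22.4% (smoked Nrf2-/-) in F1 brain. There, the Zdbf2 window had 63.6% (control WT), 65.9% (control Nrf2-/-), 62.2% (smoked WT), 63.7% (recovery 1), 62% (recovery 2), 65.2% (recovery 3), 62.9% (smoked Nrf2-/-) in F0 sperm and 25.3% (smoked WT), 27.9% (control Nrf2-/-), 25.8% (smoked Nrf2-/-) in F1 brain. With at least 6 libraries per group, the Meg3 window had 68.4% (smoked WT), 69.6% (control Nrf2-/-), 65.6% (smoked Nrf2-/-) in F1 brain. There, the Rasgrf1 window had 74.8% (smoked WT), 72% (control WT) in F1 sperm and 14.5% (smoked WT), 14.6% (control Nrf2-/-) in F1 brain. There, the Zdbf2 window had 25.3% (smoked WT), 26.5% (control Nrf2-/-), 24.4% (smoked Nrf2-/-) in F1 brain. The rule of 6 libraries can drop cytosines and longer windows can take in more, so these levels may average other cytosines than the main ones. In F1 sperm the main Rasgrf1 levels were 22.5% (smoked WT) and 21.1% (control WT) over 28 cytosines, a larger set than under that rule.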
